A study of Mus musculus with 12 samples.

Results

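The 10 genes described here encode ligand-activated transcription factors with which liver cells sense fatty acids, hormones, bile acids, oxysterols and foreign compounds: Ppara, Ppard, Nr1i2, Nr1i3, Ahr, Rxra, Nr1h3, Nr3c1, Thrb and Esr1. They were listed by name, by a rule that uses no measured value but was written with earlier results of these data known, and they are 10 of the 47729 genes in the deposited count files. All 10 were measured in all 12 mice, with at least 297 reads per gene and mouse, and all 10 entered the tests. Of the 10, 9 are nuclear receptors. Ahr is not one: it encodes the aryl hydrocarbon receptor, a ligand-activated factor of the basic helix-loop-helix PAS family.

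Liver RNA was sequenced in bulk from 12 male C57BL/6 mice in 3 groups of 4. The healthy group (Naive_vehicle) received vehicle and neither of the disease-inducing treatments. The STAM-vehicle group (STAM_vehicle) was injected with streptozotocin, a toxin of pancreatic beta cells, at day 2 of age, fed a high-fat diet from week 4 and given vehicle from week 6. The STAM-I-BET151 group (STAM_treated) had the same injection and diet and was given I-BET151, which blocks the acetyl-lysine pockets of the BET chromatin readers, by mouth at 10 mg/kg once daily from week 6. Livers were taken at 9 weeks. Injection and diet came together in every STAM mouse, so that their contributions cannot be told apart, and the study's methods give a different suspending agent for I-BET151 than for the vehicle, so that compound and formulation cannot be told apart either. The hepatocyte marker genes, albumin among them, were the most abundant of the cell type markers in every mouse. In bulk tissue, fewer cells of a type and less RNA per cell cannot be told apart.

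Most nuclear receptors carry a DNA-binding domain that recognizes the 6 bases AGGTCA or close relatives of it, and a ligand-binding domain that exchanges corepressors for coactivators when a ligand is bound. RXRα, encoded by Rxra, is the common partner: PPARα, PPARδ, PXR (Nr1i2), CAR (Nr1i3), LXRα (Nr1h3) and TRβ (Thrb) bind DNA mainly as heterodimers with it, while the glucocorticoid receptor (Nr3c1) and estrogen receptor α (Esr1) act mainly as homodimers and AHR pairs with ARNT. In liver, PPARα is known for switching on fatty acid oxidation in fasting, CAR and PXR for inducing drug-metabolizing enzymes, LXRα for lipogenesis and sterol export, and TRβ for the metabolic response to thyroid hormone.

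To show what the shared recognition element looks like near these genes, RefSeq promoter sequences (build GRCm38.p6) were searched on both strands for AGGTCA in the 250 bases before each annotated start. The table held 12 such windows for 8 of the 10 genes, and Ahr and Nr3c1 had none. AGGTCA was present in 2 of the 12 windows, that of an internal start of Rxra and that of an upstream start of Thrb, beside 14.02% of all 32851 windows in the table. The stretches of 30 bases around the matches, none of which overlaps an annotated exon, are given 5′ to 3′ on the plus strand, on which both genes are transcribed, with the half-site in capitals (TGACCT where it lies on the other strand).
Rxra, chr2:27709232-27709261: gggtggcaggaaAGGTCAgtcactctctgt
Rxra, chr2:27709193-27709222: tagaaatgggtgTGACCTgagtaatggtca
Thrb, chr14:17660764-17660793: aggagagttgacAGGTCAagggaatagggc
The 2 matches at Rxra began 48 and 87 bases before that start, and the match at Thrb 184 bases before its start. The GC box GGGCGG, searched in the same way, was present in 4 of the 12 windows and in 32.7% of all windows. The 4 belong to Ppara (chr15:85735526-85735775), Rxra, Thrb and Ppard, and all 4 overlap the annotated span of their gene. They were 76.4%, 81.2%, 71.6% and 69.6% G or C, in that order, beside a median of 52.4% over all windows. These matches describe letters in the windows and not binding by any factor.

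The libraries held 34711229 to 53365596 assigned reads. One library stood apart. In STAM-I-BET151 mouse 3 the 10 most abundant genes took 7.95% of all reads, beside 13.5% to 18.05% in the other 11 mice. Mitochondrially encoded genes took 2.71% of its reads and 4.51% to 7.30% of those of the others, and its TMM factor, the correction for library composition, was 1.61, beside 0.77 to 1.11. The study dropped 1 mouse of the STAM-I-BET151 group without naming it, and gave low gene counts as the reason. Which mouse this was cannot be told from the depths. Mouse 3 had the fewest assigned reads of its group (34711229), closely followed by mouse 2 (35171038). Mouse 2 had the fewest genes with any read in that group (22293), and mouse 3 the most (24304). Results without mouse 3 are therefore not known to match the sample set of the study. All 12 mice were used here, and the values of the 10 genes that rest on mouse 3, and counts of other genes that moved by more than 1.5 times without it, are given with and without it. Counts were normalized by TMM and expressed as CPM, the normalized count per 1e6 reads, and P values from edgeR's quasi-likelihood test were adjusted by the Benjamini-Hochberg method over the 16823 genes tested. The thresholds were an adjusted P of 0.05 for comparisons with healthy liver and 0.1 for I-BET151 against vehicle.

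Levels of different genes can be compared only per length, here as CPM per kilobase of annotated exon. In healthy liver Rxra was the most abundant of the 10, at 100.1 ± 4.76 CPM per kilobase (SD, n = 4), and exceeded the next gene in all 4 mice. A middle tier followed: Nr1i2 at 49.7 ± 3.38, Ppara at 41.9 ± 7.44, Nr1i3 at 33.8 ± 4.77 and Nr1h3 at 32.1 ± 0.971 CPM per kilobase. Neighbours within this tier were not separated, since each exceeded the next in only 3 of the 4 mice. Ahr at 8.06 ± 0.692 and Nr3c1 at 7.55 ± 1.77 CPM per kilobase were not separated either, Ahr being higher in 2 of 4 mice. Thrb (4.61 ± 1.32), Ppard (1.69 ± 0.187) and Esr1 (1.26 ± 0.160) closed the order in all 4 mice. In STAM-vehicle liver the same genes formed the same 3 tiers, but Ppara, at 28.0 ± 0.527 CPM per kilobase, came after Nr1h3 (30.6 ± 2.37) and Nr1i3 (28.6 ± 1.89). In STAM-I-BET151 liver Ppara, at 24.8 ± 5.22 CPM per kilobase, was the last of the middle tier. The exon length is the union of all annotated isoforms, so that a gene with long rarely used exons reads low on this scale.

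**Figure D1:**
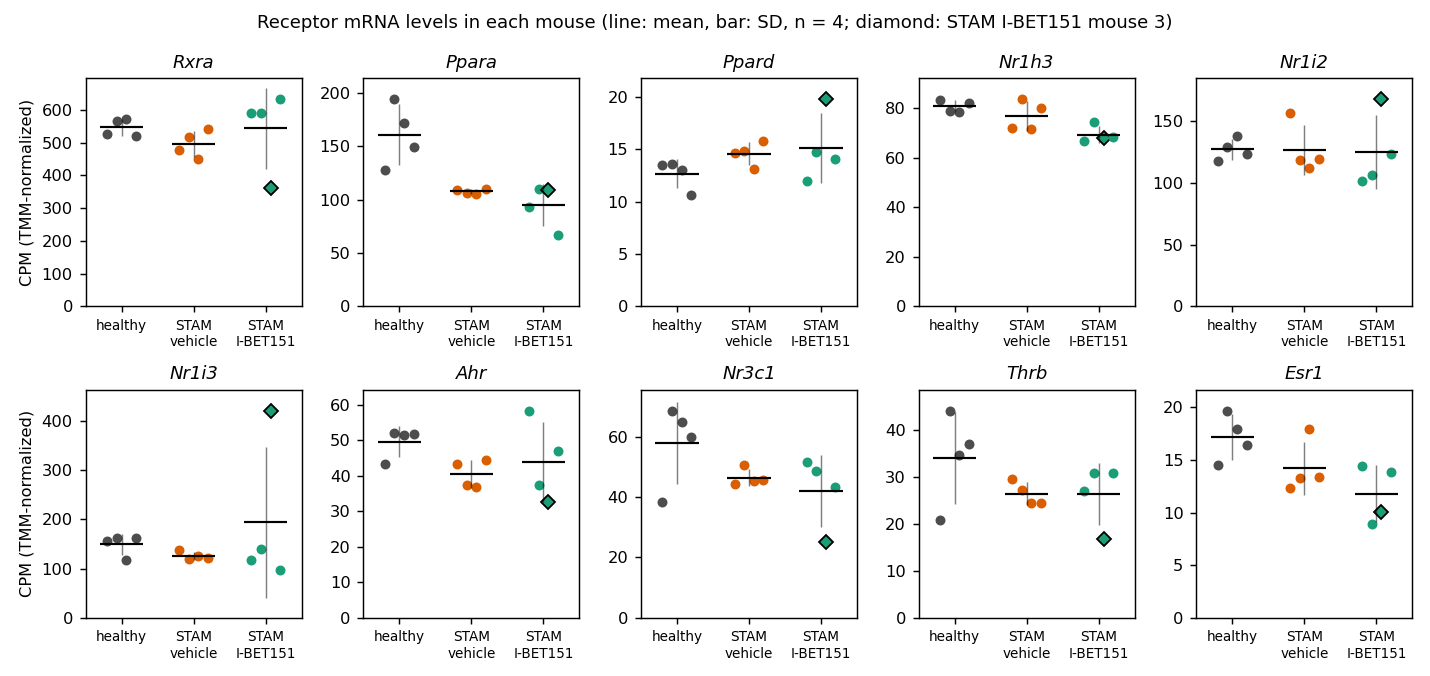
Level of each of the 10 genes in every mouse (vertical axes, TMM-normalized CPM starting at 0, a separate scale per gene) in healthy, STAM-vehicle and STAM-I-BET151 liver (horizontal axes). Each point is a mouse, the line is the mean of 4, the bar its SD and the diamond STAM-I-BET151 mouse 3. For Ppara the STAM mice lie below the 4 healthy mice, between 67.2 and 109.9 CPM against 127.9 to 194.0.

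To see whether the receptors changed with disease, STAM-vehicle liver was compared with healthy liver. None of the 10 genes passed the threshold, beside 7.10% of all genes tested (1195 genes, of which 963 were higher), and 1 of 10, Ppara, had an unadjusted P under 0.05, beside 22.3% of all genes. The point estimates lay mostly on the lower side: 9 of the 10 were below 0 and their median log2 fold change was -0.26, beside a median of 0.0089 over all genes tested. This count depends on the scaling. With library totals in place of TMM, which raised the median of all genes by 0.27, 4 of the 10 were below 0 and their median was 0.018.

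Ppara, which spans chr15:85734983-85802819 on the plus strand of GRCm38, came nearest to the threshold. Its level in healthy mice 1 to 4 was 127.9, 194.0, 171.9 and 149.0 CPM, and in STAM-vehicle mice 1 to 4 it was 108.8, 106.6, 105.3 and 109.7 CPM. Every STAM-vehicle mouse was below every healthy mouse, and the STAM-vehicle mice spanned less than 5 CPM. Genes with all STAM-vehicle mice below all healthy mice made up 12.2% of those tested. The log2 fold change of Ppara was -0.58 (SE 0.17, 95% interval -0.95 to -0.21, 1.49-fold lower), with an adjusted P of 0.0586 by edgeR. DESeq2 gave an adjusted P of 0.0116, where 9.95% of all genes passed, and edgeR without STAM-I-BET151 mouse 3 gave 0.0154, where 22.3% passed. The adjusted P was also under 0.05 without healthy mouse 1 (0.0387) or without STAM-I-BET151 mouse 4 (0.0307). Healthy mice shared a sequencing lane with STAM-vehicle mice only in lane 2, where Ppara was at 127.9 CPM in healthy mouse 1 and 109.7 CPM in STAM-vehicle mouse 4. With the lane as a covariate the log2 fold change was -0.32 (adjusted P 0.817), in a fit in which 0.220% of all genes passed. A fit of only these 2 groups called Ppara and Ahr, beside 23.9% of all genes. limma-voom with sample weights, which weighted STAM-I-BET151 mouse 3 down to 0.075, called 6 of the 10 (Ppara, Ahr, Nr3c1, Thrb and Esr1 lower, Ppard higher), beside 33.7% of all genes.

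The partner and the fatty acid sensor related to Ppara differed less between healthy and STAM-vehicle liver. Rxra was at 527.2, 566.5, 571.7 and 521.6 CPM in healthy mice 1 to 4 and at 476.2, 517.3, 450.0 and 540.6 CPM in STAM-vehicle mice 1 to 4. The groups overlapped, and the log2 fold change was -0.14 (95% interval -0.54 to 0.26, adjusted P 0.700 by edgeR). Ppard, which encodes the broadly expressed PPARδ, was at 13.5, 13.6, 12.99 and 10.6 CPM in healthy mice and 14.7, 14.8, 13.1 and 15.8 CPM in STAM-vehicle mice. It was the one gene of the 10 with an estimate above 0, a log2 fold change of 0.20 (-0.13 to 0.53, adjusted P 0.472).

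The sensors of foreign compounds and sterols gave estimates between -0.29 and 0, and each overlapped between the groups. Nr1i2, which encodes the pregnane X receptor, had healthy and STAM-vehicle means of 127.0 ± 8.64 and 126.7 ± 20.2 CPM (SD, n = 4), with a 95% interval of the log2 fold change from -0.37 to 0.36. Nr1i3, which encodes the constitutive androstane receptor, had means of 149.3 ± 21.1 and 126.1 ± 8.35 CPM. Its interval of -1.03 to 0.54 narrowed to -0.55 to 0.015 without STAM-I-BET151 mouse 3, whose high value widens the shared estimate of spread. Ahr, the sensor of dioxin-like and tryptophan-derived ligands, was at 49.7 ± 4.26 CPM in healthy and 40.6 ± 3.90 CPM in STAM-vehicle mice (log2 fold change -0.29, -0.64 to 0.058, adjusted P 0.317). Nr1h3, which encodes LXRα, was at 80.9 ± 2.44 and 76.9 ± 5.96 CPM, with the narrowest interval of the 10, -0.30 to 0.15. Exons of Nr1h3 overlap those of Gm13783 on the same strand, which had 0 to 16 reads per mouse. Exons of Ahr overlap those of Gm48236 on the other strand. Reads of Nr1h3 and Ahr may therefore have been assigned to the wrong gene or to none, and how many was not measured.

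For the hormone receptor genes Nr3c1 and Thrb the healthy mice spread more widely than the STAM-vehicle mice. Nr3c1, the glucocorticoid receptor gene, was at 38.4, 68.8, 65.1 and 59.9 CPM in healthy mice 1 to 4 and at 44.5 to 50.7 CPM in the 4 STAM-vehicle mice. Thrb was at 20.8, 44.2, 34.6 and 36.9 CPM in healthy mice and at 24.4 to 29.6 CPM in STAM-vehicle mice. For both genes healthy mouse 1 was below all STAM-vehicle mice and the other 3 healthy mice were above them. The log2 fold changes were -0.32 (-0.78 to 0.14) for Nr3c1 and -0.37 (-0.84 to 0.11) for Thrb. Over all 12 mice the 2 lowest values of both genes were those of STAM-I-BET151 mouse 3 and healthy mouse 1, which also had the 2 lowest mitochondrial shares (2.71% and 4.51%). The part of library quality in these values was not tested. Esr1, which encodes estrogen receptor α and is expressed in male liver too, was at 17.2 ± 2.19 CPM in healthy and 14.2 ± 2.504 CPM in STAM-vehicle mice, and its log2 fold change was -0.27 (-0.65 to 0.11).

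To see whether BET inhibition changed the receptors in diseased liver, STAM-I-BET151 was compared with STAM-vehicle. None of the 10 passed the threshold by edgeR, beside 0.351% of all genes (59 genes), and none by DESeq2, where 1.50% of all genes passed. No gene of the 10 had an unadjusted P under 0.05, beside 8.68% of all genes. None had groups that did not overlap, beside 5.04% of all genes, and the median log2 fold change of the 10 was -0.012, beside 0.024 over all genes. No alternative setting brought any of the 10 past the threshold in this comparison.

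The intervals limit how large a change could have been missed. Ppara was at 93.5, 109.9, 109.4 and 67.2 CPM in STAM-I-BET151 mice 1 to 4, so that mice 2 and 3 were level with the STAM-vehicle mice and mice 1 and 4 were below them. Its log2 fold change was -0.18 (95% interval -0.55 to 0.19, adjusted P 0.836). For Nr1h3 the interval was -0.37 to 0.076 and for Nr1i2 -0.39 to 0.35. Esr1 was at 14.4, 8.95, 10.0 and 13.8 CPM, with a log2 fold change of -0.27 (-0.64 to 0.11). These intervals all included 0, as did those of Ppard, Ahr, Nr3c1 and Thrb, which lay between -0.60 and 0.47.

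Nr1i3 had the largest estimate, and it rested on 1 mouse. Its level was 116.6, 140.8, 421.8 and 96.4 CPM in STAM-I-BET151 mice 1 to 4, and the value of mouse 3 was 3.58 times the mean of the other 3. The log2 fold change was 0.62 (-0.16 to 1.40, adjusted P 0.679) with all mice and -0.088 (-0.39 to 0.22, adjusted P 0.786) without mouse 3. Exons of Nr1i3 (chr1:171213970-171220701, plus strand) share sequence with Tomm40l, a gene on the opposite strand that encodes a protein related to a mitochondrial import channel. Tomm40l was at 128.0 CPM in mouse 3 and at 20.8 to 42.2 CPM in the other 11 mice. The library kit keeps strand, but the strand setting of the counting is not given in the sources used here, so that reads of the 2 genes may not be told apart. Apoa2, the neighbouring gene, was lowest in mouse 3, at 1452 CPM beside 3078 to 4846 CPM in the others. Of all genes tested, 3.80% deviated in mouse 3 from the other STAM-I-BET151 mice by at least as much as Nr1i3.

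Mouse 3 was at the edge of the 12 mice for 7 of the 10 genes. It was the highest of the 12 for Nr1i3, Nr1i2 (167.7 CPM) and Ppard (19.8 CPM), and the lowest for Rxra (361.2 CPM), Ahr (32.8 CPM), Nr3c1 (25.0 CPM) and Thrb (16.9 CPM). The share of all genes with mouse 3 at the edge was not counted. Apart from Nr1i3, 32.3% (for Nr3c1) to 59.7% (for Ahr) of all genes tested deviated in mouse 3 by at least as much as these genes. For Rxra the other 3 STAM-I-BET151 mice were at 590.7, 590.7 and 632.7 CPM, above all 4 STAM-vehicle mice. Its log2 fold change was 0.13 (-0.26 to 0.53) with mouse 3 and 0.30 (0.065 to 0.53, adjusted P 0.183 by edgeR) without it. The sums of the hepatocyte markers in mouse 3 also stood apart, at 22947 CPM beside 58585 to 132785 CPM in the other 11 mice, and their part in the receptor values was not tested. Nr1h3 varied least: its coefficient of variation in the STAM-I-BET151 group was 5.02%, beside 21.1% to 78.9% for the other 9 genes.

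**Figure D2:**
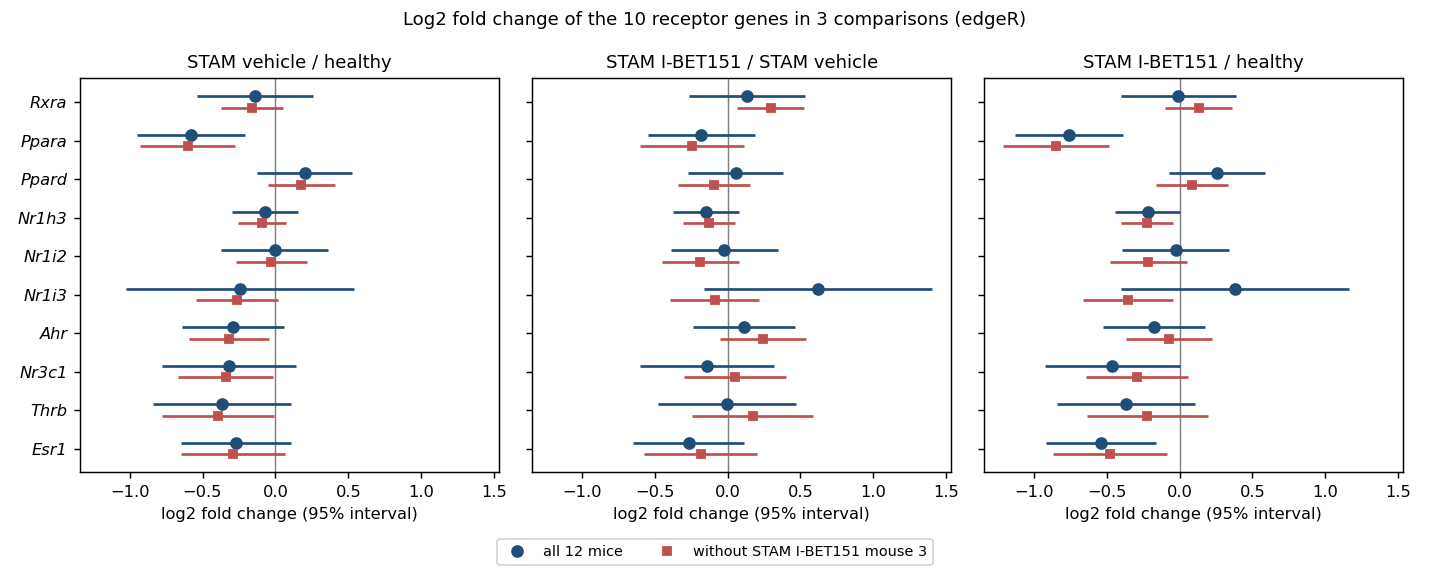
Log2 fold change of each gene (horizontal axes) with its 95% interval in the 3 comparisons, from edgeR with all 12 mice (circles) and without STAM-I-BET151 mouse 3 (squares). The squares have shorter intervals for most genes, and Nr1i3 moves from 0.62 to -0.088 in the I-BET151 comparison.

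To see whether treated mice differed from healthy ones, STAM-I-BET151 was compared with healthy liver. The comparison shares the healthy mice with the first and the STAM-I-BET151 mice with the second, and is not independent of either. Ppara was the one gene of the 10 past the threshold, beside 15.1% of all genes (2546 genes) and 5.25% of all genes on the lower side, and 2 of the 10, Ppara and Esr1, had an unadjusted P under 0.05, beside 32.6% of all genes. It fell by 0.76 on the log2 scale (SE 0.17, 95% interval -1.13 to -0.39, 1.69-fold lower, adjusted P 0.0115 by edgeR), and all 4 STAM-I-BET151 mice were below all 4 healthy mice. The call held with each of the 12 mice left out in turn, with adjusted P values between 0.00481 and 0.0432. It was lost with library totals (-0.33, adjusted P 0.295), with the lane as a covariate (-0.58, adjusted P 0.330, where 0.505% of all genes passed) and in a fit of only these 2 groups (-0.74, adjusted P 0.0525, where 7.88% passed). Within lane 2 Ppara was at 127.9 CPM in healthy mouse 1 and 67.2 CPM in STAM-I-BET151 mouse 4, and within lane 5 it was at 149.0 CPM in healthy mouse 4 and 109.9 CPM in STAM-I-BET151 mouse 2.

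Groups that did not overlap, with the STAM-I-BET151 mice lower, were found for 3 of the 10 genes, Ppara, Nr1h3 and Esr1, beside 8.85% of all genes. The log2 fold change of Esr1 was -0.54 (-0.92 to -0.16, adjusted P 0.0551 by edgeR and 0.0334 by DESeq2). limma-voom with sample weights called these 3 genes, beside 29.0% of all genes. That of Nr1h3 was -0.22 (-0.44 to 0.0043, adjusted P 0.162). Nr3c1 had an estimate of -0.46, which became -0.29 (-0.64 to 0.060) without mouse 3, and Thrb one of -0.37, which became -0.22. The remaining 5 genes had estimates between -0.18 and 0.38, the highest being that of Nr1i3, which was -0.35 (-0.66 to -0.049, adjusted P 0.0940) without mouse 3.

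The 2 genes whose profile over the 12 mice was most like that of Ppara were Dnajb4, which encodes a heat shock protein cochaperone, and Zfp108, a zinc finger gene. The root mean square difference of their centred log2 CPM values from those of Ppara was 0.13 and 0.14, beside 0.39 for the spread of Ppara itself. This is a description over 12 mice that share their groups and libraries.

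The other nuclear receptors were examined for comparison. Of 40 such genes 31 were expressed highly enough to be tested. In STAM-vehicle against healthy liver 5 of the 31 passed the threshold, beside 7.10% of all genes, and 4 of the 5 are described here. Pparg, which encodes the adipogenic PPARγ, rose from 5.87 to 6.92 CPM in the healthy mice to 9.30 to 16.1 CPM in the STAM-vehicle mice (log2 fold change 0.97, SE 0.26, adjusted P 0.0368 by edgeR). Nr0b2, which encodes the bile acid-induced repressor SHP, fell by 1.23 on the log2 scale, the clock repressor gene Nr1d1 by 0.97 and Nr2c1, an orphan receptor gene, by 0.45. Pparg kept its call in 5 of the 12 fits that left out a mouse, Nr0b2 in 6 and Nr2c1 in 9, while Nr1d1 kept it in all 12. Without STAM-I-BET151 mouse 3, 10 of the 31 passed, 2 higher and 8 lower, where 22.3% of all genes did. None of the 31 passed in I-BET151 against vehicle by edgeR, 4 had an unadjusted P under 0.05 and 1 passed by DESeq2. Among them Nr4a3 had a log2 fold change of -0.93 (adjusted P 0.601) and Esrrb one of -0.88 (adjusted P 0.234). Nr4a3 had only 17 to 29 reads per mouse in STAM-vehicle and 4 to 19 in STAM-I-BET151 liver. Without STAM-I-BET151 mouse 3 Nr2c1 passed (0.30, adjusted P 0.0871). In STAM-I-BET151 against healthy liver 7 of the 31 passed, beside 15.1% of all genes. Among them Nr0b2 was lower by 1.87 on the log2 scale and the estrogen-related receptor genes Esrrg and Esrrb by 1.01 and 0.89, Nr5a2 and Nr1d1 were also lower, and Pparg was higher. Here Pparg kept its call in 3 and Nr1d1 in 8 of the 12 fits that left out a mouse, while Nr0b2 kept it in all 12.

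Dimerization partners, coactivators, corepressors and chaperones of the receptors were a list of 20 genes, all tested. None passed in STAM-vehicle against healthy liver by edgeR or DESeq2, and none had an unadjusted P under 0.05. The 2 largest estimates were those of the chaperone gene Hsp90aa1 (-0.37, adjusted P 0.607) and the AHR repressor gene Ahrr (-0.28, adjusted P 0.781). Ahrr had only 1 to 13 reads per mouse in healthy and 7 to 12 in STAM-vehicle liver. In I-BET151 against vehicle 1 of the 20 passed. This was Ppargc1a, which encodes PGC-1α, the coactivator of PPARα and other receptors known for its part in mitochondrial biogenesis and fasting gluconeogenesis. Its level was 15.7, 23.1, 32.2 and 29.6 CPM in healthy mice 1 to 4, 40.1, 19.6, 23.1 and 23.96 CPM in STAM-vehicle mice and 7.33, 10.3, 7.39 and 12.5 CPM in STAM-I-BET151 mice. The STAM-I-BET151 mice were below all 8 others, and mouse 3 was level with mouse 1. The log2 fold change against STAM-vehicle was -1.51 (SE 0.27, adjusted P 0.0485 by edgeR), and without mouse 3 it was -1.40 (adjusted P 0.0445). The call was lost without STAM-vehicle mouse 4 (adjusted P 0.132) or STAM-I-BET151 mouse 1 (0.165). It was also lost with library totals (0.139), in a fit of only these 2 groups (0.137), with the replicate number as a block (0.173) and with the lane as a covariate (0.184), a fit in which 0 genes passed. The call was kept under 15 of the 21 alternatives, and its log2 fold change stayed between -1.74 and -1.25 under the alternatives run. Mice of both STAM groups shared lanes 2, 6 and 7, in which Ppargc1a was at 23.96, 40.1 and 23.1 CPM with vehicle and 12.5, 7.33 and 7.39 CPM with I-BET151. Against healthy liver Ppargc1a fell by 1.42 on the log2 scale (adjusted P 0.00468), while the AHR partner gene Arnt rose by 0.45.

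**Figure D3:**
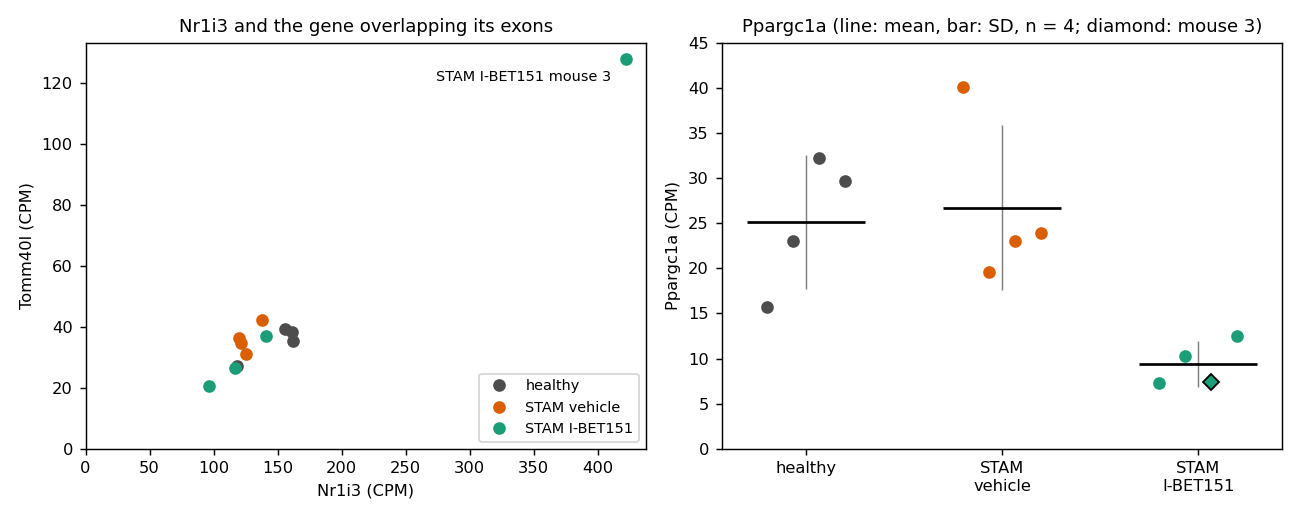
Left, Nr1i3 against Tomm40l in each of the 12 mice (both axes in CPM, coloured by group): STAM-I-BET151 mouse 3 lies apart at 421.8 and 128.0 CPM. Right, Ppargc1a in each mouse by group (CPM; line, mean of 4; bar, SD; diamond, mouse 3), with the 4 STAM-I-BET151 mice between 7.33 and 12.5 CPM, below the 8 others.

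Known target genes of the receptors were counted from lists of textbook targets. Of 21 PPARα targets, all tested, 20 had estimates below 0 in STAM-vehicle against healthy liver. The threshold was passed by 4, all lower, beside 7.10% of all genes, and not by 17 of the 21. The median log2 fold change of the 21 was -0.62, beside 0.0089 over all genes. In 16 of the 21 the STAM-vehicle mice were all below the healthy mice, beside 12.2% of all genes. Ehhadh, a peroxisomal enzyme of β-oxidation, was at 2270, 3431, 4357 and 2480 CPM in healthy mice 1 to 4 and at 804.3, 520.9, 981.0 and 837.9 CPM in STAM-vehicle mice, a log2 fold change of -1.996 (SE 0.37, adjusted P 0.00664 by edgeR). Fabp1, the liver fatty acid-binding protein gene, fell by 1.501, the acyl-CoA thioesterase gene Acot1 by 1.52 and the peroxisomal thiolase gene Acaa1b by 1.29 on the log2 scale. Acaa1b kept its call in 5 and Fabp1 in 10 of the 12 fits that left out a mouse. Without STAM-I-BET151 mouse 3, 15 of the 21 passed, in a fit in which 22.3% of all genes did. With library totals 17 of the 21 were below 0 and 3 passed, and with the lane as a covariate 17 were below 0 and none passed. DESeq2 called 8 of the 21. The 8 hepatocyte markers were also all below 0, with a median of -0.55. None of the 8 passed the threshold with all mice and 5 passed without mouse 3, all lower, and their part in the counts of targets was not tested. In I-BET151 against vehicle none of the 21 passed by edgeR or DESeq2 and 3 had an unadjusted P under 0.05. The largest estimates were those of Pdk4 (0.92, adjusted P 0.569) and Ehhadh (0.86, adjusted P 0.521), and the median was -0.0029. Without mouse 3 Ehhadh passed, with an adjusted P of 0.0879. In STAM-I-BET151 against healthy liver 4 passed, all lower, where 15.1% of all genes did. They were Fabp1, Acot1, Hsd17b4 and Cpt1a, with log2 fold changes of -1.12, -0.82, -0.81 and -0.61. Without mouse 3, 9 passed, where 20.4% of all genes did, and 12 passed by DESeq2, where 18.0% of all genes did. Acot1 kept its call in 3 and Fabp1 in 8 of the 12 fits that left out a mouse.

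Targets of CAR and PXR moved in both directions. Of 17 genes 7 passed the threshold in STAM-vehicle against healthy liver, 3 higher and 4 lower, beside 7.10% of all genes. Estimates were above 0 for 7 and below 0 for 10, and the median log2 fold change was -0.11. Without STAM-I-BET151 mouse 3, 5 passed in each direction, where 22.3% of all genes passed. Cyp2b9 rose from 0.0581 to 6.68 CPM in healthy mice to 37.2 to 373.9 CPM in STAM-vehicle mice (log2 fold change 6.19, SE 1.16, adjusted P 0.00665 by edgeR). Cyp3a11, the main inducible drug-metabolizing cytochrome P450 of mouse liver, fell from 3745 to 5335 CPM to 738.1 to 1066 CPM (-2.42, SE 0.40), and the bile acid and drug uptake transporter gene Slco1a4 from 180.6 to 211.0 CPM to 31.2 to 44.0 CPM (-2.36, SE 0.26). The glutathione transferase gene Gsta1 rose by 2.06 on the log2 scale. Several of these genes have close paralogs, among which the authors' counting may have lost or split reads. None of the 17 passed in I-BET151 against vehicle by edgeR or DESeq2 and 3 had an unadjusted P under 0.05, with the largest estimates for Cyp2b10 (-1.85, adjusted P 0.401) and Gsta1 (-0.94, adjusted P 0.550). Without mouse 3 Ugt1a1, a bilirubin-conjugating enzyme gene, passed (0.43, adjusted P 0.0576), though its exons are shared with other genes of the Ugt1a cluster. In STAM-I-BET151 against healthy liver 6 passed, 2 higher and 4 lower, beside 15.1% of all genes. They were led by Cyp2b9 (6.42), Slco1a4 (-3.11), Cyp3a11 (-2.18) and the carboxylesterase gene Ces2a (-2.11).

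Of 7 AHR targets 6 were tested, and 3 passed in STAM-vehicle against healthy liver, where 7.10% of all genes did. The quinone reductase gene Nqo1 rose from 5.87 to 7.59 CPM to 12.1 to 24.2 CPM (log2 fold change 1.46, SE 0.25, adjusted P 0.00428 by edgeR) and Cyp1b1 rose by 1.17, while Cyp1a2 fell by 0.97 on the log2 scale (adjusted P 0.0394). Nqo1 is a target of the oxidant sensor NRF2 as well. Of 13 LXR targets the desaturase gene Scd1 fell from 1735 to 2255 CPM to 54.5 to 242.8 CPM (-3.78, SE 0.58, adjusted P 0.00200), while the lipoprotein lipase gene Lpl rose by 1.42 and Cyp7a1, the rate-limiting enzyme of bile acid synthesis, by 0.91. Of 7 thyroid hormone targets the corepressor gene Hr rose, by 1.25 (adjusted P 0.0331). Of 12 glucocorticoid receptor targets none passed by edgeR, 3 had an unadjusted P under 0.05 and 1 passed by DESeq2, and the largest estimates were 1.22 for Igfbp1 and -0.73 for Tsc22d3. Cyp1a2 kept its call in 5, Lpl in 3, Cyp7a1 in 4 and Hr in 6 of the 12 fits that left out a mouse. Without STAM-I-BET151 mouse 3, 6 LXR, 2 glucocorticoid receptor and 2 thyroid hormone targets passed, where 22.3% of all genes did.

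In I-BET151 against vehicle none of these 4 lists had a gene past the threshold by edgeR or DESeq2, and 1, 1, 1 and 2 genes of the AHR, LXR, glucocorticoid and thyroid hormone lists had an unadjusted P under 0.05. The largest estimates were those of Nqo1 (-0.84) and Cyp1a1 (-0.36), Scd1 (-1.44) and Fasn (-0.73), the metallothionein genes Mt2 (1.15) and Mt1 (0.91), and Thrsp (-1.21) and Me1 (-0.46). Mt2 ranged from 20.8 to 741.2 CPM in STAM-I-BET151 and from 79.7 to 127.5 CPM in STAM-vehicle mice, with mean log2 CPM of 6.64 and 6.68. Mt1 ranged from 34.6 to 746.1 CPM and from 109.7 to 175.1 CPM, with mean log2 CPM of 7.15 and 7.09. All 7 thyroid hormone targets had estimates below 0, with a median of -0.34. Without STAM-I-BET151 mouse 3, where 2.38% of all genes passed, Fasn (-1.33, adjusted P 0.0108) and Thrsp (-2.38, adjusted P 0.0317) passed. In STAM-I-BET151 against healthy liver the glucocorticoid-induced gene Tsc22d3 fell by 1.51 on the log2 scale and the gluconeogenic gene Pck1 by 1.21, and the thyroid hormone targets Me1 and Gpd2 fell by 0.79 and 0.61. The AHR list had 3 genes past the threshold, Cyp1a2 (-1.15), Cyp1b1 (1.12) and Cyp1a1 (-0.84), and the LXR list had 2, Scd1 (-5.22) and Lpl (1.67). With all mice 15.1% of all genes passed in this comparison. Without mouse 3, where 20.4% of all genes passed, 4 glucocorticoid receptor and 4 LXR targets did.

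**Figure D4:**
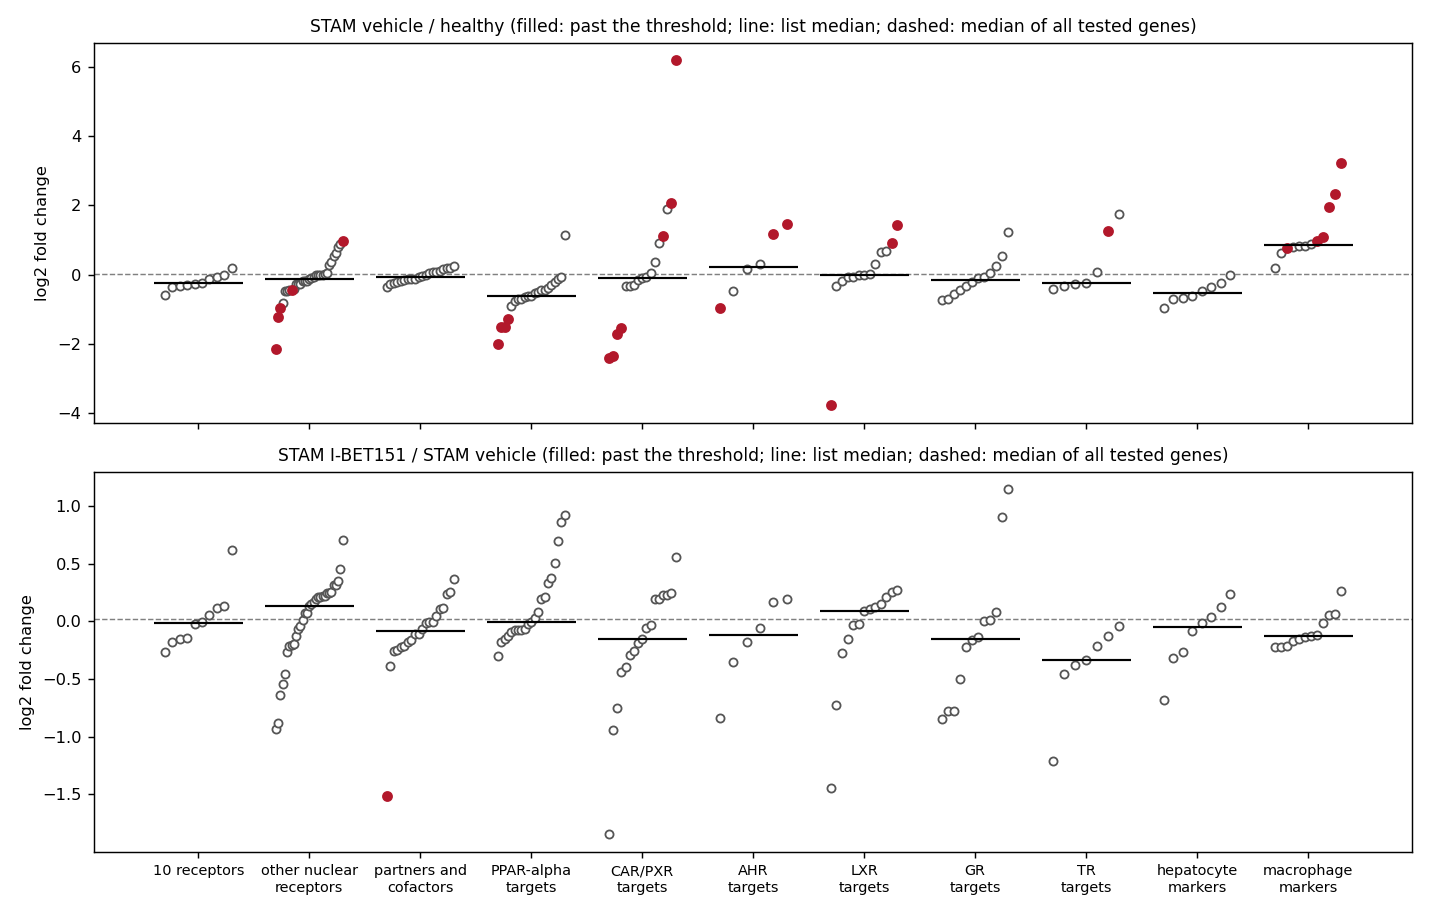
Log2 fold changes (vertical axes) of every tested gene in each list, sorted within the list, for STAM-vehicle against healthy (top) and STAM-I-BET151 against STAM-vehicle (bottom). Filled points passed the threshold, solid lines are list medians and dashed lines the median of all genes tested; 20 of 21 PPARα targets lie below 0 in the top panel, and Ppargc1a is the one filled point in the bottom panel.

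Markers of some cell types in the liver differed between the groups. The summed levels of the stellate cell, endothelial and cholangiocyte markers overlapped between all groups. Of 12 macrophage markers all had estimates above 0 in STAM-vehicle against healthy liver. With all mice 6 of the 12 passed, where 7.10% of all genes did, and 11 passed without STAM-I-BET151 mouse 3, where 22.3% did. The summed level of the macrophage markers was 246.5 to 358.2 CPM in healthy, 392.7 to 775.1 CPM in STAM-vehicle and 304.6 to 674.3 CPM in STAM-I-BET151 mice. The summed level of the 8 hepatocyte markers was 109738 to 132785 CPM in healthy, 58585 to 78027 CPM in STAM-vehicle and 22947 to 90770 CPM in STAM-I-BET151 mice. Albumin made up most of this sum, with means of 81119 CPM in healthy and 41310 CPM in STAM-vehicle mice. All 8 had estimates below 0 there, but the means of Hnf4a were 1052 and 1039 CPM and those of Cps1 7733 and 6591 CPM. The summed level of the 9 lymphocyte markers was 2.97 to 8.66 CPM in healthy, 6.48 to 9.23 CPM in STAM-vehicle and 3.13 to 5.06 CPM in STAM-I-BET151 mice, so that the STAM groups did not overlap. In I-BET151 against vehicle 8 of the 9 had estimates below 0, with a median of -0.73, 4 had an unadjusted P under 0.05, and 1, the T cell gene Cd4, fell past the threshold (-1.77, adjusted P 0.0520 by edgeR), beside 3 by DESeq2. In STAM-vehicle against healthy liver 1 of the 9 passed, the T cell gene Cd8a (2.31), and 2 without mouse 3, where 22.3% of all genes did. Cd8a had only 3 to 12 reads per mouse in healthy and 26 to 63 in STAM-vehicle liver. Of 8 stellate cell markers 1 passed in STAM-vehicle against healthy liver, Col1a1 (1.14), of 4 neutrophil markers 1 of 3 tested, Csf3r (1.01), and of 6 endothelial and 5 cholangiocyte markers none. Without mouse 3 these counts were 4, 3, 1 and 1, where 22.3% of all genes passed. The part of cell composition in the receptor values was not tested.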

How the data were processed

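Liver mRNA from 12 mice was sequenced with a stranded mRNA kit. The authors deposited whole-number counts per Ensembl gene, 1 file per mouse, made after alignment with STAR 2.5.1b to mm10; the study's methods name htseq-count and the labels' file type featureCounts, and the strand setting and annotation release are not given in the sources used here. Of 47729 genes 47310 matched GENCODE M21, which gave symbols, positions and exon lengths, and held 99.978% of the counts. Totals of 34711229 to 53365596 counts per mouse set the precision. Replicates differed beyond sampling noise (chi-square per degree of freedom 35.3 to 746), so that each mouse counts as 1 sample.

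After a filter on low counts (filterByExpr, minimum count 10), 16823 genes were fitted over all 12 mice with edgeR 4.0.16 (R 4.3.3), TMM factors and the quasi-likelihood F test, with Benjamini-Hochberg adjustment. The study used DESeq2, which was run as an alternative (version 1.42.0), as was limma-voom with sample weights (limma 3.58.1). Log2 CPM used a prior count of 2. Standard errors and 95% intervals of log2 fold changes were derived from the F statistic. The fits were tested on simulated counts. The alternatives were other size factors, library totals, other filters, fits of 2 groups, the replicate number or the lane as a covariate, other thresholds, and leaving out each mouse.

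All 10 genes are named. From each other list the genes named are at most the 4 with the largest log2 fold change among those past the threshold, or the 2 largest where none passed, and for Ppara the 2 tested genes with the most similar centred profile. Nr2c1, Nr5a2, single cell type markers, Tomm40l, Apoa2 and genes named for a fit without 1 mouse were chosen after their values were seen. Some genes that this rule names are not reported here. The receptor genes and the lists were chosen with earlier results of these data known.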

Additional observations from a re-analysis of the deposited data

Results flagged for a closer look

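Within groups of 4, a mouse was marked where the gap to its nearest neighbour exceeded the 95% critical share of the group's range (Dixon's test). Of 42 groups looked at, 6 held such a mouse, and chance marks about 1 in 20. For Nr1i3, STAM-I-BET151 mouse 3 was at 421.8 CPM beside 96.4 to 140.8 CPM, and healthy mouse 3 at 118.0 CPM beside 156.0 to 161.8 CPM. For Rxra, STAM-I-BET151 mouse 3 was at 361.2 CPM beside 590.7 to 632.7 CPM. For Ahr, healthy mouse 1 was at 43.3 CPM beside 51.4 to 52.2 CPM. The share of reads in the 10 most abundant genes was 7.95% in STAM-I-BET151 mouse 3 beside 16.4% to 17.6% in the other mice of its group. The mitochondrial share was 6.44% in STAM-vehicle mouse 1 beside 5.83% to 5.93% in the others of that group.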

How the results depend on the processing

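With 4 mice a group the 95% intervals were wide: in I-BET151 against vehicle they ran from -0.37 to 0.076 for Nr1h3, the narrowest, to -0.16 to 1.40 for Nr1i3. Each gene had 297 or more reads in every mouse, and the spread between mice exceeded counting error. Below, the 3 comparisons are STAM-vehicle against healthy (A), I-BET151 against vehicle (B) and STAM-I-BET151 against healthy (C). Of the single values of the 10 genes under the alternatives, 553 kept their direction and side of the threshold, 18 crossed it to pass, 3 no longer passed and 56 changed sign. The cause of these changes was not tested.

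The number of the 10 genes past the threshold was 0 in A, 0 in B and 1 in C. DESeq2 gave 1 in A and 2 in C, a fit of only the 2 groups compared 2 and 0, voom with sample weights 6 and 3, the lane as a covariate 0 in C, and an adjusted P of 0.1 1 and 2. With 1 mouse left out it was 0 to 1 in A, 0 in B and 1 to 2 in C. Over all genes 1195, 59 and 2546 passed. DESeq2 gave 1892 in A and 268 in B, the 2-group fits 3879, 8 and 1262, the lane covariate 37, 0 and 85, and voom 5672, 1205 and 4880. In B library totals gave 6, no filter 101 and an adjusted P of 0.05 26, and an adjusted P of 0.1 gave 2052 in A and 4162 in C. With 1 mouse left out the counts were 546 to 3779 in A (highest without STAM-I-BET151 mouse 3), 13 to 403 in B (highest without the same mouse) and 1292 to 3731 in C. Of the genes past the threshold, 80.6% were higher in A and 65.3% in C, and 95.4% and 92.9% with library totals, which moved the median of all genes by 0.27, 0.11 and 0.40 in A, B and C.

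The replicate block, a fit with the mouse number as a covariate, gave 742, 10 and 1573 genes past the threshold. The numbers did not pair the mice: the mean correlation of same-numbered mice was -0.070 in A, -0.062 in B and -0.15 in C. Ppara was past the threshold in C with the block (-0.76, adjusted P 0.0233 by edgeR) and not in A (-0.56, 0.0992). With the block Ppargc1a did not pass in B (adjusted P 0.173). Nr1i2 had 0.0019 in A with the block.

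Of the log2 fold changes that turned sign, 1 passed the threshold, that of Rxra in C with library totals (0.31, adjusted P 0.0476). Library totals gave 0.27 for Nr1i2, 0.019 for Nr1i3, 0.13 for Rxra, 0.20 for Nr1h3 and 0.016 for Esr1 in A, 0.16 for Nr1i2 and 0.037 for Thrb in B, and 0.43 for Nr1i2, 0.17 for Ahr and 0.16 for Nr1h3 in C. The lane covariate gave 0.11 for Rxra, 0.18 for Nr3c1 and 0.24 for Thrb in A, and -0.25 for Nr1i3, 0.18 for Rxra and 0.083 for Thrb in C. Voom gave -0.15 for Ppard, -0.12 for Nr1i3 and 0.15 for Thrb in B, and -0.40 for Nr1i3 and 0.15 for Rxra in C. The stricter filter gave 0.027 for Nr1i2 in A, 0.00024 for Thrb in B, and 0.022 for Nr1i2 and 0.026 for Rxra in C, and no filter 0.00067 for Nr1i2 in A. RLE size factors gave 0.00048 for Thrb in B, and the 2-group fits 0.0074 for Thrb in B and 0.0091 for Rxra in C. With 1 mouse left out Nr1i2 ranged from -0.12 to 0.051 in A, -0.19 to 0.094 in B and -0.22 to 0.058 in C, Nr1i3 from -0.088 to 0.84 in B and -0.35 to 0.59 in C, and Rxra from -0.094 to 0.13 in C. In B Ppard ranged from -0.093 to 0.15, Ahr from -0.054 to 0.24, Nr3c1 from -0.26 to 0.050 and Thrb from -0.085 to 0.17.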
